A study of Mus musculus with 6 samples.

Results

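The genes described here are the fatty acid receptor gene Ppara, its relative Ppard, the partner receptor genes Rxra and Rxrg, the coactivator genes Ppargc1a and Ppargc1b, the estrogen-related receptor genes Esrra and Esrrg, and Pdk4 and Ucp3, which are commonly read as targets of these receptors. The members were all probe sets annotated to exactly 1 of these 10 gene symbols, 23 of the 45101 probe sets in the deposited table. Of these, 21 were bright enough to be tested, and every member gene had at least 1 tested probe set. RNA from male mouse hearts was hybridised to 6 Affymetrix arrays, 2 in each of 3 groups. The high-FASN and low-FASN groups each came from a single transgenic line in which the myocardium-specific alpha-MHC promoter drives fatty acid synthase (FASN), the enzyme that makes palmitate, and the third group held age-matched B6 control mice. All 6 samples carry the strain label C57BL/6J, no age is given, and the tissue label names a transgenic heart for the controls too, so the groups follow the sample titles. With 1 line per level, the amount of FASN and any other trait of a line cannot be told apart. Whether the 2 arrays within a group stem from different animals is unstated, so p-values capture array-to-array spread only, which may be technical.

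PPAR alpha is a nuclear receptor that binds fatty acids and, paired with a retinoid X receptor (RXR), switches on genes of fatty acid uptake and oxidation, the main fuel path of the adult heart. PGC-1 alpha and PGC-1 beta, the products of Ppargc1a and Ppargc1b, bind no DNA themselves and work as coactivators of PPARs and of the estrogen-related receptors (ERRs), which act on genes of the citric acid cycle and respiratory chain. Pdk4 encodes a kinase that shuts down pyruvate dehydrogenase and so spares glucose, and Ucp3 encodes a mitochondrial carrier of muscle that follows fatty acid supply.

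Upstream sequences of 3 member genes are shown because they lie before the starts of the readouts Pdk4 and Ucp3 and of the coactivator Ppargc1a, which moved differently in the arrays. They are the 250 bases before a RefSeq start in GRCm38.p6, on the strand of the gene: chr7:100472741-100472990 on the plus strand for Ucp3, chr6:5496279-5496528 on the minus strand for Pdk4 and chr5:51567726-51567975 on the minus strand for Ppargc1a. Capitals mark the receptor half-site AGGTCA.
Ucp3: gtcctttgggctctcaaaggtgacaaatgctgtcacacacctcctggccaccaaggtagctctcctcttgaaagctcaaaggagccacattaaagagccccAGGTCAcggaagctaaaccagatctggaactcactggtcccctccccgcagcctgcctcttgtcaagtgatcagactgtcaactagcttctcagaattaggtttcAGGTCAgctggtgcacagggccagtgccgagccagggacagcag
Pdk4: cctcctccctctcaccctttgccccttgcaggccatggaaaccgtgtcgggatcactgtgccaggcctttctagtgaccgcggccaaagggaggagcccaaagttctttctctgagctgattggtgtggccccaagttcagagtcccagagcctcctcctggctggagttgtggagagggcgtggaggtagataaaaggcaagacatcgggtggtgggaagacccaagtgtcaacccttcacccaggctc
Ppargc1a: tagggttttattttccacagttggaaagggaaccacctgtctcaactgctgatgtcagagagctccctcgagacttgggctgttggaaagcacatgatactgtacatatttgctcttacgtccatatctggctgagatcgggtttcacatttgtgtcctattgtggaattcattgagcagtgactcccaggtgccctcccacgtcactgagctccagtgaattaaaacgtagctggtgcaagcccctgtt

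RefSeq windows of 300 bases, 250 before to 50 after a start, were listed for 9 of the 10 members, with 14 windows among them. Each was searched on both strands for the half-site AGGTCA, for the direct repeat of PPAR and RXR, 2 half-sites in the same orientation with any 1 base between them, and for the ERR element TCAAGGTCA, which holds 1. The Ucp3 window held the half-site at 149 to 144 and at 44 to 39 bases before the start. A window each of Rxra and Rxrg also held it, while 0 of the 14 windows held either longer motif. Of all 32851 promoter windows, 16.3% held the half-site, 0.0396% the direct repeat and 0.423% the ERR element. A match is a description of these letters and shows no binding.

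The probe set of Fasn read 2268 and 2104 in high-FASN hearts, 462 and 481 in low-FASN hearts and 213 and 187 in controls, in the order of the labels. Arrays of a group correlated at 0.987 to 0.990 over the tested probe sets, and arrays of different groups at 0.969 to 0.977. Among 13 cardiomyocyte markers such as Myh6 and Tnnt2, all were bright enough to be tested in this heart tissue. Added hybridization controls stood 0.27 higher on the log2 scale in high-FASN than in low-FASN hearts (median of 18 probe sets). Against control they stood at -0.19 in low-FASN hearts and at 0.08 in high-FASN hearts. The part of these shifts in the differences between the lines and in those from control was not tested.

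Probe sets were called where limma gave a Benjamini-Hochberg adjusted p below 0.05 over all 22519 tested. Of the members, 3 of the 21 tested members were higher and 8 lower in high-FASN hearts than in control, where 8.18% of all tested probe sets were higher and 6.18% lower. The 8 lower ones came from Ppara and Ppargc1a only, so they describe 2 genes. In low-FASN hearts 2 were higher and 9 lower, against 13.5% and 10.8% of all probe sets. The 9 came from Ppara, Ppargc1a, Rxra, Esrra and Esrrg, and the 2 from Ucp3. In the high-FASN against the low-FASN hearts 7 were higher and 5 lower, against 9.69% and 8.87%. The 5 were all Ppargc1a, and the 7 came from Ppara, Rxra, Ppargc1b, Esrra and Esrrg. The 2 control arrays served for both lines, which ties the comparisons with control to each other.

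Ppara was lower than in control in both lines, and lowest in low-FASN hearts. Its brightest probe set, 1449051_at, read 1455 and 1478 in controls, 1055 and 999.7 in high-FASN hearts and 594.9 and 565.0 in low-FASN hearts. The 3 groups did not overlap. On the log2 scale of the signal plus 16, on which all differences are given, it fell by 0.51 ± 0.0711 (SE) in high-FASN hearts (limma, Benjamini-Hochberg adjusted p = 0.00163), and by 1.32 ± 0.0711 in low-FASN hearts (adjusted p = 4.37e-06). The difference between the lines was 0.81 (95% interval 0.65 to 0.97, adjusted p = 0.000166), 1.75-fold higher in high-FASN hearts. All folds given are of the signal plus 16, and so lie closer to 1 than folds of the plain signals.

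The 2 other Ppara probe sets moved the same way against control. Probe set 1439675_at read 951.2 and 1016 in controls, 672.9 and 566.8 in high-FASN hearts, and 466.3 and 474.2 in low-FASN hearts. Probe set 1457721_at read 866.5 and 898.6 in controls, 570.3 and 618.4 in high-FASN hearts, and 491.8 and 498.4 in low-FASN hearts. Both thus had every transgenic array below every control array and every low-FASN array below every high-FASN array. Against control they fell by 0.66 and 0.56 in high-FASN hearts (adjusted p = 0.00211 for both) and by 1.04 and 0.81 in low-FASN hearts (adjusted p = 9.56e-05 and 0.000154). Between the lines the 3 probe sets disagreed in size: 1439675_at was 0.38 higher in high-FASN hearts (adjusted p = 0.0237) and 1457721_at 0.255 higher (adjusted p = 0.0592, not called). The call on 1439675_at was lost without high-FASN array 1 (adjusted p = 0.105), without low-FASN array 1 (0.122) and without low-FASN array 2 (0.106). In whole-heart RNA, fewer cells of a type and less RNA per cell cannot be told apart. Summed signals of other marker lists also differed. Fibroblast sums were 31877 to 32372 in controls, 43779 to 44716 in high-FASN hearts and 47041 to 48828 in low-FASN hearts. In that order, smooth muscle sums were 5466 to 5607, 11605 to 11899 and 11392 to 11691. Airway sums were 227 to 237, 3084 to 3277 and 234 to 311. Macrophage sums were 14124 to 14228, 12772 to 12899 and 16023 to 16536.5. Their part in the member values was not tested.

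**Figure D1:**
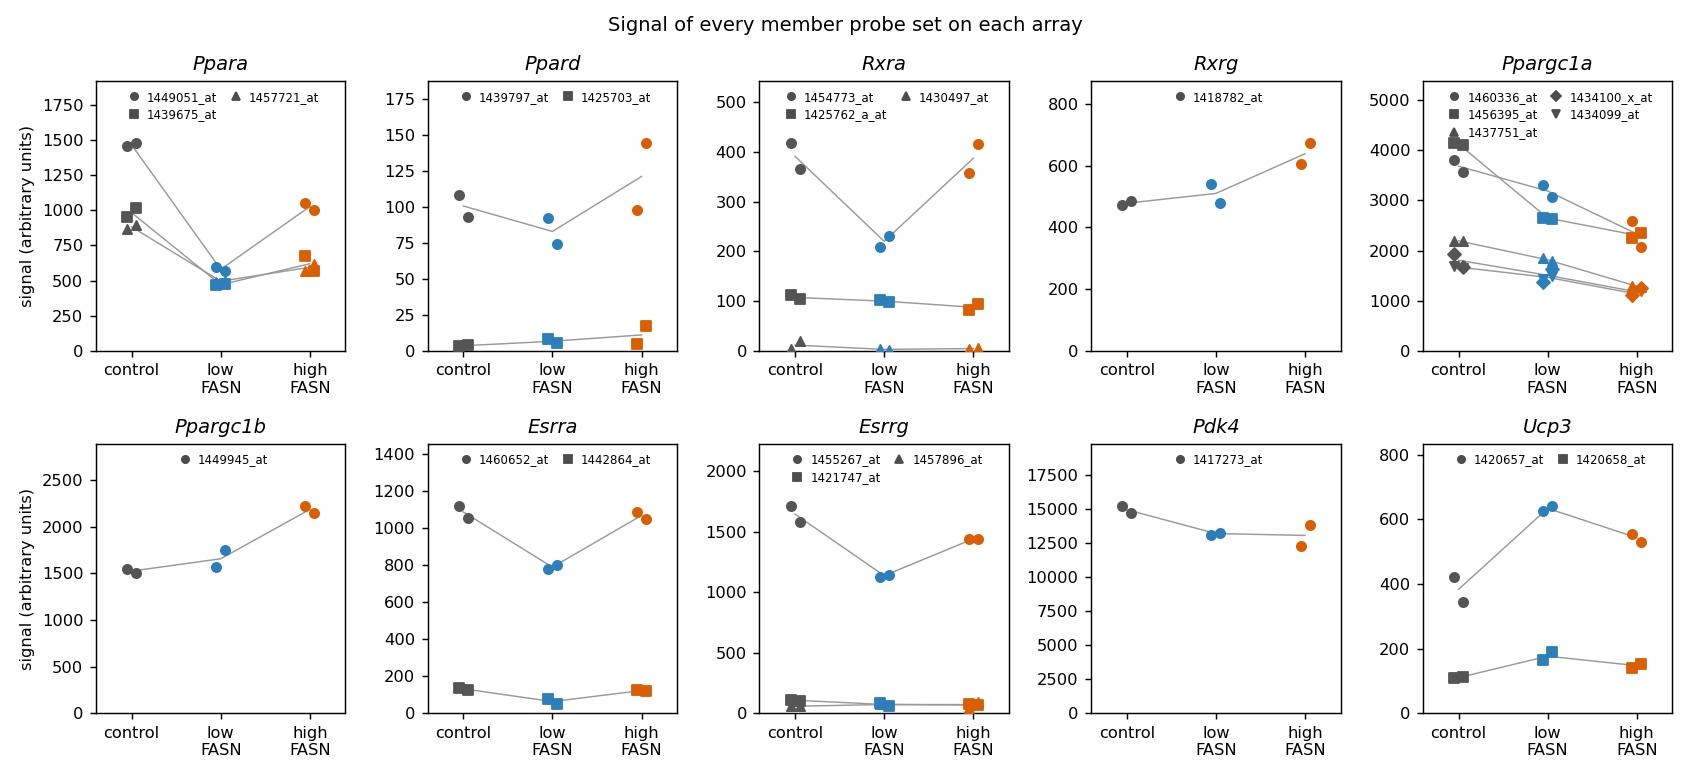
Signal in arbitrary units (linear axis from 0) of the 23 member probe sets, 1 panel per gene, by group. Each symbol is 1 array, symbol shapes are probe sets, and grey lines join the group means of 2 arrays. Ppara, Esrra and the brightest Rxra and Esrrg probe sets are lowest in low-FASN hearts, Ppargc1a is lowest in high-FASN hearts, and Ppargc1b is highest there.

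Ppard, the broadly expressed relative of Ppara, did not differ by the test. Probe set 1439797_at read 108.2 and 92.9 in controls, 92.0 and 73.8 in low-FASN hearts, and 98.0 and 144.2 in high-FASN hearts, where the arrays lay far apart. Its differences from control were 0.22 in high-FASN hearts (95% interval -0.29 to 0.72) and -0.24 in low-FASN hearts (-0.74 to 0.26). The low-FASN interval is wide enough to hold a fall of 0.51, the size seen for the brightest Ppara probe set in high-FASN hearts, and the high-FASN interval is not. The other Ppard probe set, 1425703_at, read 3.16 to 17.3 over the 6 arrays and was too dim to be tested.

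The RXR genes split. Rxra, the main RXR of the heart, fell in low-FASN hearts on its brightest probe set, 1454773_at. That probe set read 417.3 and 364.8 in controls, 358.0 and 416.2 in high-FASN hearts, and 209.3 and 230.8 in low-FASN hearts. The high-FASN and control arrays overlapped, and both low-FASN arrays lay below the other 4. Low-FASN hearts were 0.78 ± 0.126 lower than control (adjusted p = 0.00194), and high-FASN hearts 0.77 higher than low-FASN ones (adjusted p = 0.00334). High-FASN hearts stood at -0.01 against control, with a 95% interval of -0.30 to 0.27. The dimmer probe set 1425762_a_at did not share the pattern: it read 103.1 and 111.3 in controls, 97.3 and 102.2 in low-FASN hearts and 80.9 and 93.9 in high-FASN hearts, and passed in 0 of the 3 comparisons. The dimmest, 1430497_at, read 1.54 to 19.5 and was not tested.

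Rxrg, an RXR of striated muscle, was higher in high-FASN hearts. It read 472.2 and 484.9 in controls, 542.4 and 478.3 in low-FASN hearts, and 605.3 and 673.1 in high-FASN hearts, whose arrays lay above the other 4. It rose by 0.40 ± 0.0983 against control in high-FASN hearts (adjusted p = 0.0244) and stood at 0.09 in low-FASN hearts (adjusted p = 0.566). The difference between the lines was 0.32 (adjusted p = 0.0521, not called), close to the threshold. It passed with cyclic loess (0.0486), with the 75th percentile filter (0.0395) and with 1 probe set per gene (0.0419). In the main fit the rise against control was thus not shown to differ between the lines. The call was lost without high-FASN array 2 (adjusted p = 0.0863), control array 1 (0.118) or control array 2 (0.0979), and with no intensity trend (0.0933), and the line difference passed without high-FASN array 1 (0.0493) and with quantile normalization (0.0466).

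Ppargc1a fell in both lines, and more in high-FASN hearts, the reverse of the order seen for Ppara. Of its 5 probe sets, 1456395_at fell most: it read 4143 and 4114 in controls, 2658 and 2640 in low-FASN hearts, and 2256 and 2352 in high-FASN hearts. Probe set 1437751_at read 2199 and 2190 in controls, 1843 and 1786 in low-FASN hearts, and 1298 and 1276 in high-FASN hearts. In both, the 3 groups were separate and the 2 arrays of each group lay close together. The first fell by 0.84 ± 0.0528 in high-FASN hearts (adjusted p = 1.33e-05) and by 0.64 ± 0.0528 in low-FASN hearts (adjusted p = 4.96e-05). The second fell by 0.76 ± 0.0579 in high-FASN hearts (adjusted p = 4.48e-05) but by 0.27 in low-FASN hearts (adjusted p = 0.00801).

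The other Ppargc1a probe sets followed the second. Probe set 1460336_at read 3807 and 3562 in controls, 3312 and 3066 in low-FASN hearts, and 2599 and 2066 in high-FASN hearts. Probe set 1434099_at read 1690 and 1651 in controls, 1433 and 1496 in low-FASN hearts, and 1076 and 1190 in high-FASN hearts. Probe set 1434100_x_at, whose suffix marks probes that can match other transcripts, read 1941 and 1673 in controls, 1371 and 1641 in low-FASN hearts, and 1107 and 1244 in high-FASN hearts. High-line arrays lay below low-FASN arrays, and low-FASN arrays below control arrays, on all 5 probe sets; of all tested probe sets, 23.9% had both high-FASN arrays below both controls, 30.3% both low-FASN arrays below both controls and 29.2% both high-FASN below both low-FASN arrays. In high-FASN hearts all 5 fell, by 0.56 to 0.84. With no intensity trend in the fit, the calls on 1460336_at (adjusted p = 0.0574) and 1434100_x_at (0.0718) were lost. In low-FASN hearts the 3 just described stood at -0.21, -0.19 and -0.26 and did not pass (adjusted p = 0.156, 0.0811 and 0.0993).

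Between the lines all 5 Ppargc1a probe sets were lower in high-FASN hearts, by 0.20 to 0.49. The clearest was 1437751_at (adjusted p = 0.000698), and the call on it held in each of the 16 other settings that gave a value for it. The other 4 calls were lost on leaving out an array: 1456395_at without any of 5 arrays (adjusted p = 0.0536 to 0.156; it held without high-FASN array 2), 1460336_at without low-FASN array 1 (0.0981) or 2 (0.0509), 1434099_at without low-FASN array 2 (0.0714), and 1434100_x_at without high-FASN array 1 (0.168), low-FASN array 2 (0.294) or control array 1 (0.0501). In low-FASN hearts against control, the call on 1437751_at was lost without low-FASN array 2 (0.0764), control array 1 (0.0527) or control array 2 (0.0511), and with no intensity trend (0.0717), while 1460336_at and 1434099_at passed without high-FASN array 1 (0.0226 and 0.0372) or 2 (0.022 and 0.0381).

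Ppargc1b moved opposite to Ppargc1a in high-FASN hearts. Its probe set read 1545 and 1507 in controls, 1564 and 1751 in low-FASN hearts, and 2224 and 2149 in high-FASN hearts. The high-FASN arrays stood clear of the others, and the low-FASN arrays lay just above the controls. It rose by 0.51 ± 0.0689 in high-FASN hearts (adjusted p = 0.00127), a 1.43-fold change, and stood at 0.12 in low-FASN hearts (95% interval -0.04 to 0.27, adjusted p = 0.259). The lines differed by 0.40 (adjusted p = 0.0044; 0.0535 without low-FASN array 1).

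The ERR genes were lower in low-FASN hearts. Esrra, which encodes ERR alpha, read 1122 and 1057 in controls, 1090 and 1051 in high-FASN hearts, and 779.9 and 801.7 in low-FASN hearts on probe set 1460652_at. Controls and high-FASN hearts overlapped, and low-FASN hearts lay below both. It fell by 0.45 ± 0.0707 in low-FASN hearts (adjusted p = 0.00166) and stood at -0.02 in high-FASN hearts (95% interval -0.18 to 0.13), with a difference between the lines of 0.43 (adjusted p = 0.00346). The dimmer probe set 1442864_at read 137.2 and 129.0 in controls, 127.1 and 120.4 in high-FASN hearts, and 78.6 and 49.4 in low-FASN hearts. It was 0.92 lower in low-FASN hearts than in control (adjusted p = 0.013), a call lost without low-FASN array 2 (0.0955), control array 1 (0.077) or control array 2 (0.0591). It was 0.83 higher in high-FASN than in low-FASN hearts (adjusted p = 0.0271), a call lost without high-FASN array 1 (0.0876), high-FASN array 2 (0.0574) or low-FASN array 2 (0.173).

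Esrrg encodes ERR gamma, the ERR of tissues with high energy use. Its bright probe set 1455267_at read 1714 and 1579 in controls, 1442 and 1443 in high-FASN hearts, and 1130 and 1146 in low-FASN hearts, with no overlap of the groups. It fell by 0.53 ± 0.0657 in low-FASN hearts (adjusted p = 0.000493) and stood at -0.19 in high-FASN hearts (adjusted p = 0.0919, not called). The lines differed by 0.34 (adjusted p = 0.00766), a call lost without low-FASN array 1 (0.0658) or 2 (0.0561). The dim probe sets 1421747_at (65.3 to 114.9 over the 6 arrays) and 1457896_at (46.4 to 92.2) passed in 0 comparisons, and the latter had the opposite sign against control.

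The 2 readouts did not move together. Pdk4 read 15232 and 14688 in controls, 12329 and 13812 in high-FASN hearts, and 13135 and 13280 in low-FASN hearts. Every transgenic array lay below the control arrays, and the lines overlapped. The differences from control were -0.20 ± 0.0589 in high-FASN hearts (adjusted p = 0.0542) and -0.18 ± 0.0589 in low-FASN hearts (adjusted p = 0.053), just short of the threshold of 0.05. Between the lines the difference was -0.02 (95% interval -0.15 to 0.12). The high-FASN difference passed without high-FASN array 2 (-0.28, adjusted p = 0.00281) and with quantile normalization (-0.27, adjusted p = 0.0133), with the 75th percentile filter (0.0463) and with 1 probe set per gene (0.0407). The low-FASN one passed without high-FASN array 1 (adjusted p = 0.00458) or 2 (0.00467), with only the 4 arrays compared (0.00431), with the filter (0.0469), with 1 probe set per gene (0.042) and, barely, with a replicate block (0.04996). With quantile normalization the lines differed as well, by -0.19 (adjusted p = 0.0475).

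Ucp3 was higher in both lines. On probe set 1420657_at it read 421.7 and 345.7 in controls, 556.4 and 530.9 in high-FASN hearts, and 627.0 and 641.8 in low-FASN hearts. On probe set 1420658_at it read 109.0 and 112.3 in controls, 141.2 and 154.3 in high-FASN hearts, and 164.6 and 189.5 in low-FASN hearts. In both, controls were lowest and low-FASN hearts highest, with no overlap. The first rose by 0.71 ± 0.107 in low-FASN hearts (1.63-fold, adjusted p = 0.00137) and by 0.49 ± 0.107 in high-FASN hearts (1.41-fold, adjusted p = 0.0149). The second rose by 0.61 in low-FASN hearts (adjusted p = 0.0229) and stood at 0.37 in high-FASN hearts (adjusted p = 0.164). Neither differed between the lines by the test (-0.22 and -0.24, adjusted p = 0.194 and 0.355). The high-FASN call was lost without high-FASN array 1 (0.0559) or control array 2 (0.102), and with no intensity trend (0.0781). The low-FASN call on the second probe set was lost on leaving out any of the 4 arrays compared (0.064 to 0.157).

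Ucp3 is also a gene of skeletal muscle and brown fat. Among 11 skeletal muscle markers, 7, including Myh1, Myh4, Actn3 and Tnnt3, were too dim on average to be tested. Actn3 read at most 16.8, while Atp2a1 reached 96.1 in high-FASN array 2 and Myh2 68.0 in control array 1. Of the 4 that could be tested, the creatine kinase gene Ckm and the skeletal actin gene Acta1 are also expressed in heart, while Tnni2 and Mylpf encode fast skeletal muscle proteins. Acta1 rose by 0.30 in high-FASN hearts (adjusted p = 0.00841) and by 0.63 in low-FASN hearts (adjusted p = 9.12e-05). Tnni2 read 55.7 and 44.0 in controls, 116.7 and 94.0 in high-FASN hearts and 76.5 and 109.6 in low-FASN hearts. It rose 1.84-fold in the former (adjusted p = 0.0369) and stood at 0.72 in the latter (adjusted p = 0.0544). Ckm fell by 0.25 in low-FASN hearts (adjusted p = 0.00968), and Mylpf passed in 0 comparisons. The part of skeletal muscle in the Ucp3 values was not tested. Brown fat markers were higher in high-FASN hearts (3 rose and 1 fell of 6 tested, of 8 listed), Ucp1 reading 846 and 799 there, 185 and 232 in low-FASN hearts and 6.23 and 10.3 in controls. The 1 that fell is Ppargc1a itself. In low-FASN hearts 2 of the 6 rose and 0 fell. The summed signal of the 7 brown fat genes on the arrays was 24735 to 25056 in controls, 26223 to 28251 in high-FASN hearts and 23117 to 23264 in low-FASN hearts. Most of this sum was Cox8b alone, with means of 19713 in controls, 21034 in high-FASN hearts and 17902 in low-FASN hearts. The sum thus mainly follows that 1 gene. White fat markers also rose (6 of 8 tested in high-FASN hearts, 5 of 8 in low-FASN hearts), with a summed signal of 22473 to 23050 in controls, 33935 to 34609 in low-FASN hearts and 42697 to 46283 in high-FASN hearts. Most of the white fat sum in controls was Fabp4, with means of 19945 in controls, 20444 in low-FASN hearts and 22793 in high-FASN hearts. Fabp4 did not pass against control. Most of the rise of the sum was Car3, with means of 1159, 10039 and 14934 in the same order. The part of fat in the member values was not tested. Adipoq, the fat cell hormone adiponectin, read 3485 and 3181 in high-FASN hearts, 1678 and 1681 in low-FASN hearts and 138 and 97.5 in controls.

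**Figure D2:**
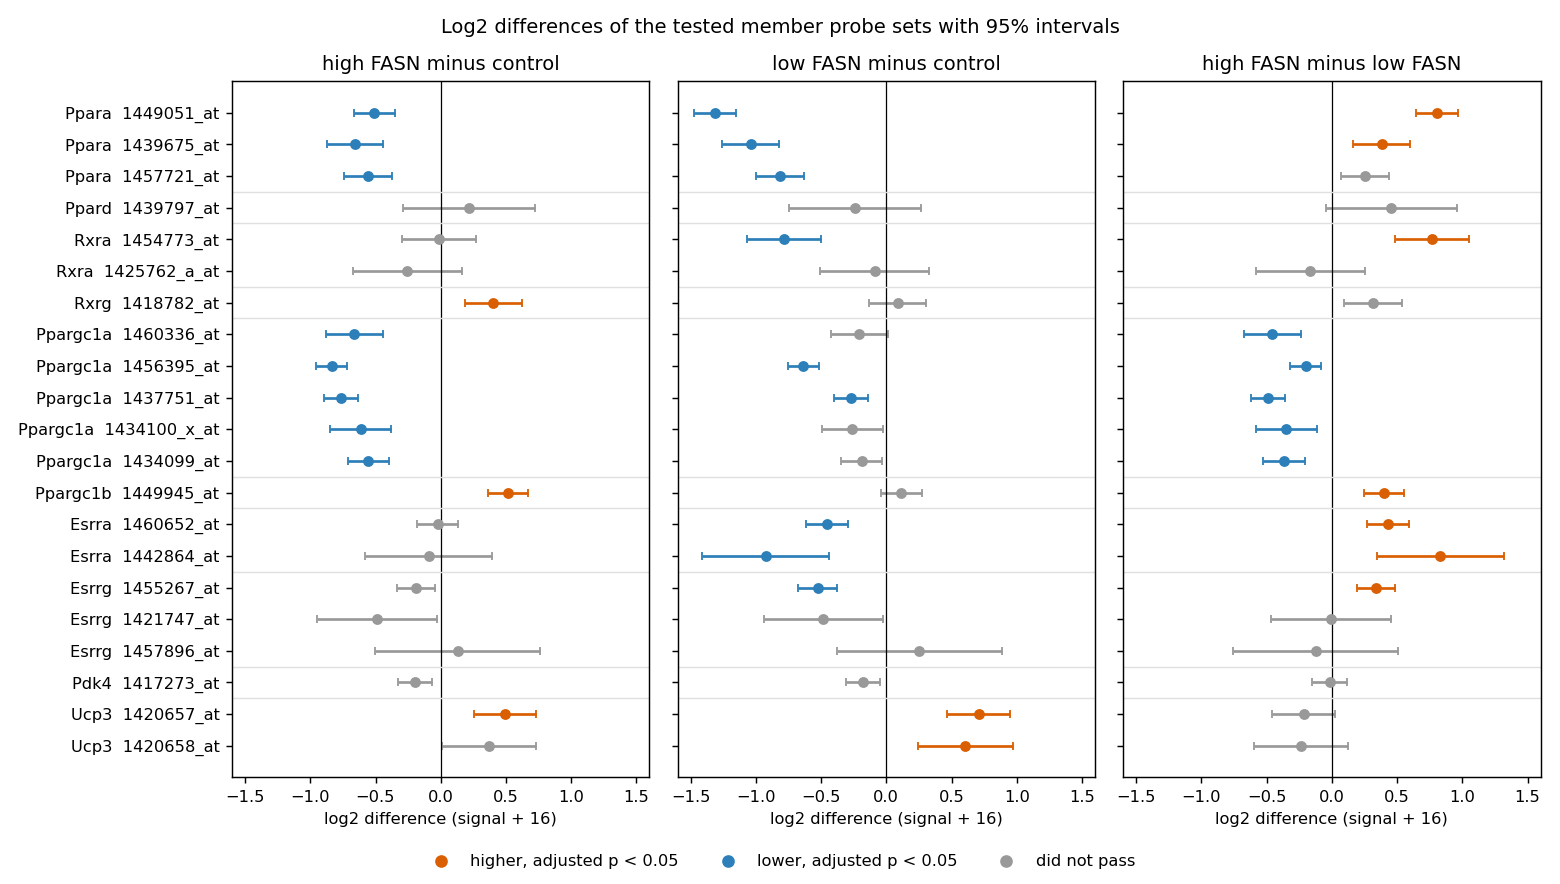
Log2 differences of signal + 16 (x axis) for the 21 tested member probe sets (rows) in 3 comparisons, with 95% intervals from limma. Orange and blue points passed adjusted p below 0.05 upward and downward. Ppara is lower than control in both lines and higher in high-FASN than in low-FASN hearts, while Ppargc1a runs the other way between the lines and Ppargc1b rises in high-FASN hearts.

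Genes that PPAR alpha is known to act on were taken as a list of 35 beyond the members, of which 27 were tested, 1 probe set each. In low-FASN hearts 10 were lower and 3 higher than control, beside 10.8% and 13.5% of all tested probe sets. The median was -0.16 beside 0.02 over all tested probe sets. Those with the smallest p among the lower ones were Acot2, a mitochondrial acyl-CoA thioesterase, which went from 2986 to 1994 (-0.58, adjusted p = 9.56e-05), and Plin5, the lipid droplet coat protein of oxidative muscle, from 3776 to 2619 (-0.53). Angptl4, a secreted inhibitor of lipoprotein lipase, and Txnip, a thioredoxin-binding protein, rose in the same line. Cpt1a was the third that rose there, from 667 to 928 (0.46, adjusted p = 0.00458). Angptl4 rose from 237 to 786 in low-FASN hearts and to 999 in high-FASN hearts, 3.17-fold and 3.99-fold on the signal plus 16. Txnip rose from 3783 to 5940 and 8044, by 0.65 and 1.09. The count of lower genes in low-FASN hearts was 5 without low-FASN array 1, 6 without either control array and 16 without either high-FASN array. It was 11 with quantile normalization and 9 with cyclic loess, with medians of -0.09 and -0.08, and 4 with no intensity trend.

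In high-FASN hearts 5 of the 27 rose and 0 fell, beside 8.18% and 6.18% of all tested probe sets, with a median of 0.14 beside 0.04. With quantile normalization 4 rose and 1 fell and the median was 0.05, with median centring 2 rose and with cyclic loess 7 rose. Beside Angptl4 and Txnip these included Acot2 (0.24, adjusted p = 0.0157) and Lpl, lipoprotein lipase (0.26, adjusted p = 0.03). With quantile normalization Lpl stood at 0.07 (adjusted p = 0.183). The count of 5 became 9 without high-FASN array 2, 3 without either low-FASN array and 2 without either control array or with no intensity trend. In the high-FASN against the low-FASN hearts 15 were higher and 0 lower, beside 9.69% and 8.87% of all tested probe sets. The median was 0.29 beside 0.01. Acot2 was 0.82 higher, Eci1, an isomerase of unsaturated fatty acid oxidation, 0.62, Plin5 0.52 and Acaa2, the last enzyme of the beta-oxidation spiral, 0.42 higher. With quantile normalization this count was 12 higher and 2 lower and the median 0.17, and with no intensity trend 7 were higher. The markers of heart muscle cells moved with it: 10 of 13 were higher in high-FASN than in low-FASN hearts and 0 lower at the deposited scaling, and 4 higher and 2 lower with quantile normalization. Their summed signal was 316243 to 352604 in high-FASN hearts, 258562 to 265316 in low-FASN hearts and 279480 to 290173 in controls. The part of this shift in the list was not tested.

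Mitochondrial genes downstream of PGC-1 and the ERRs moved with the scaling. Of 28 tested of 29, 3 rose and 1 fell in high-FASN hearts (median 0.13), 1 rose and 7 fell in low-FASN hearts (median -0.09), and 14 were higher and 0 lower in high-FASN than in low-FASN hearts (median 0.18). With quantile normalization these counts became 1 and 4, then 3 and 3, then 3 and 4, and the medians -0.01, -0.02 and -0.03. No direction is thus given for the list. At the deposited scaling, 8.18% of all tested probe sets rose and 6.18% fell in high-FASN hearts, and 13.5% and 10.8% in low-FASN hearts. Between the lines 9.69% were higher and 8.87% lower. Without single arrays the count of 14 became 3 (low-FASN array 1) or 6 (low-FASN array 2). The 7 lower in low-FASN hearts became 2 without either low-FASN array or control array 1, 3 without control array 2 and 11 without either high-FASN array. The 3 higher in high-FASN hearts became 12 without high-FASN array 2 and 1 without either control array. Ogdh, a subunit of the 2-oxoglutarate dehydrogenase of the citric acid cycle, read 5061 ± 42.5 in controls, 6372 ± 172 in high-FASN hearts and 3152 ± 80.4 in low-FASN hearts (SD, n = 2). It was 0.68 lower than control in low-FASN hearts (adjusted p = 2.69e-05) and 0.33 higher in high-FASN hearts (adjusted p = 0.00272). Mfn2, which fuses mitochondria, fell by 0.52 in low-FASN hearts (adjusted p = 0.000104), and Gabpa, a transcription factor for respiratory genes, rose there by 0.35 (adjusted p = 0.00377).

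**Figure D3:**
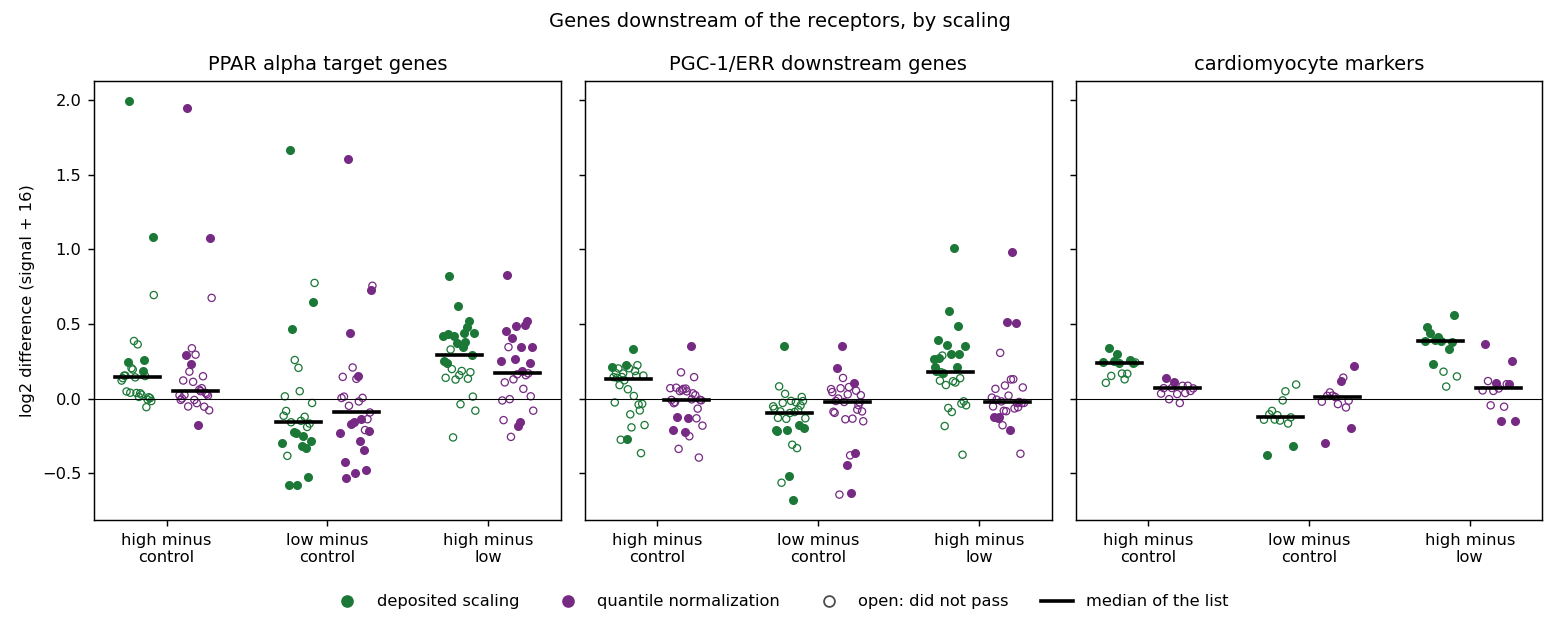
Log2 differences of signal + 16 (y axis) for the tested genes of 3 lists in 3 comparisons (x axis), 1 point per gene, at the deposited scaling (green) and with quantile normalization (purple). Filled points passed adjusted p below 0.05 and black bars are list medians. In the high-FASN against the low-FASN hearts the PPAR alpha list median goes from 0.29 to 0.17 and the PGC-1 and ERR list median from 0.18 to -0.03 with quantile normalization.

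Among 27 tested partners and coregulators of 29 listed, 5 rose and 3 fell in high-FASN hearts, and 1 rose and 4 fell in low-FASN hearts, with medians of 0.00 and 0.03 beside 0.04 and 0.02 over all tested probe sets. In high-FASN hearts the counts became 3 and 1 without either control array, 3 and 2 without high-FASN array 1 and 4 and 5 without high-FASN array 2. In the high-FASN against the low-FASN hearts 6 were higher and 2 lower, and 2 were higher without either low-FASN array. Called shares over all tested probe sets were 8.18% higher and 6.18% lower in high-FASN hearts, and 13.5% and 10.8% in low-FASN hearts. Between the lines they were 9.69% and 8.87%. Lpin1, a phosphatase that also works as a coactivator with PGC-1 alpha, fell by 0.56 in high-FASN hearts (adjusted p = 0.000115) and 0.46 in low-FASN hearts (adjusted p = 0.000211). Perm1, a muscle regulator induced by PGC-1 and ERRs, fell by 0.38 in high-FASN hearts and 0.69 in low-FASN hearts (adjusted p = 0.00962 and 0.000226). It was 0.31 higher in high-FASN than in low-FASN hearts (adjusted p = 0.019). Nrip1, a corepressor of nuclear receptors known as RIP140, rose by 0.44 in high-FASN hearts and 0.76 in low-FASN hearts (adjusted p = 0.00481 and 0.000146). Klf15, a partner factor of PPAR alpha in the heart, fell by 0.54 in low-FASN hearts (adjusted p = 0.00237) and was 0.52 higher in high-FASN than in low-FASN hearts (adjusted p = 0.00418). Pparg, the PPAR of fat cells and 1 of the 11 white fat markers above, was 0.95 higher in high-FASN than in low-FASN hearts (adjusted p = 0.0112). Sirt1 was lower in high-FASN hearts, by 0.30 against control and 0.47 against low-FASN hearts (adjusted p = 0.0392 and 0.00521). In the same order, Mef2d was 0.43 and 0.35 higher (adjusted p = 0.00278 and 0.00636) and Nr1d1 0.87 and 0.50 higher (adjusted p = 0.00525 and 0.0468).

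Other enzymes of the pyruvate dehydrogenase switch and other uncoupling proteins, 12 tested of 13, mostly did not pass. In high-FASN hearts 1 rose and 1 fell, and in low-FASN hearts 2 rose and 1 fell. Over all tested probe sets, 8.18% rose and 6.18% fell in high-FASN hearts, and 13.5% and 10.8% in low-FASN hearts. The counts of this list lie near these shares. Without high-FASN array 2 the count of rises in high-FASN hearts were 4, and without low-FASN array 2 that in low-FASN hearts was 1. The kinase genes Pdk1, Pdk2 and Pdk3 differed by -0.13 to 0.46 in the 2 comparisons with control and did not pass. Pdpr, a regulatory subunit of the pyruvate dehydrogenase phosphatase, fell by 0.60 in high-FASN hearts and 0.58 in low-FASN hearts (adjusted p = 0.000244 and 0.000171). The rises were those of Ucp1 in both lines and of Pdha1, a subunit of pyruvate dehydrogenase itself, in low-FASN hearts (0.30, adjusted p = 0.00396).

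The genes whose profile over the 6 arrays lay closest to the brightest Ppara probe set, by Euclidean distance between log2 profiles centred on their means, were Ppp1r3b, a glycogen-targeting subunit of protein phosphatase 1 (distance 0.168), Fcho2 (0.218), the metalloproteinase inhibitor Timp4 (0.242), Otub1 (0.247) and the small heat shock protein gene Hspb7 (0.264). Ppp1r3b read 899.5 and 852.1 in controls, 595.2 and 636.2 in high-FASN hearts, and 336.5 and 312.4 in low-FASN hearts. Closest to Pdk4 were R3hdm1 (0.0466), Etfrf1, a factor that acts on the electron transfer flavoprotein (0.0483), Ddr1 (0.0597), Hnrnpll (0.0612) and 3000002C10Rik (0.0634).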

How the data were processed

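The deposited values are linear signal intensities per probe set from 6 single-colour Affymetrix arrays, made by the authors with GCOS (algorithm, version and scaling not given in the sources used here), per the submitters' processing notes. The 2% trimmed mean of every array was 300.002 in the deposited table. Gene names came from the platform annotation: of 45037 probe sets other than controls, 34945 had 1 symbol, 932 several and 9160 none. A further probe set that carries Ppard with another symbol was not used.

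Differences were fitted to log2(signal + 16) over all 6 arrays with limma 3.58.1 in R 4.3.3 (lmFit and eBayes, with the trend option; 3 residual degrees of freedom, 6.43 from the prior). Probe sets were tested where their mean log2 value reached the median (5.98, a signal of 47.0), which left 22519. Calls are two-sided at a Benjamini-Hochberg adjusted p below 0.05. The 2 arrays in each group limit the precision. In data simulated for the high line against control over 22519 probe sets, 26 of 50 planted differences of 0.5 and 44 of 50 of 1 were called, with 5 false calls. Differences were planted in 50 probe sets at each of 0.5, 1, 1.5 and 2, while 3234 probe sets were called in the data. The simulated noise was independent, with a spread set by signal level only, so these rates need not hold for the data. Each list gene is shown by its brightest probe set, and counts as tested only where that probe set was tested. Genes named from a list are mostly among those called with the smallest p in a comparison, followed across the others, and not every such gene is named. Further genes were chosen after their values were seen, and every member is named. The members and the lists were chosen with earlier results of these data known. Alternatives covered the scaling, the pseudocount, the filter, the trend, the arrays fitted, a replicate block, 1 probe set per gene and leaving out each array. Counts of list genes under each were added after seeing the data.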

Additional observations from a re-analysis of the deposited data

Results flagged for a closer look

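The difference between the 2 transgenic lines itself passed the test for 12 of the 21 tested member probe sets, from 6 genes. For these the effect against control differed between the lines by the test. Beside them, 9.69% of all tested probe sets passed as higher and 8.87% as lower. Most of the 12 calls were lost with no intensity trend, as given below. In the high line against the low line, Ppara was higher by 0.81 (1449051_at) and 0.38 (1439675_at), Rxra by 0.77 (1454773_at), Ppargc1b by 0.40, Esrra by 0.43 (1460652_at) and 0.83 (1442864_at) and Esrrg by 0.34 (1455267_at). Ppargc1a was lower on all 5 probe sets, at -0.46 (1460336_at), -0.20 (1456395_at), -0.49 (1437751_at), -0.35 (1434100_x_at) and -0.37 (1434099_at). All are log2 differences of signal + 16.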

How the results depend on the processing

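Of 17 other settings, 0 turned the direction of a called member difference. Against the counts of 3 higher and 8 lower (high line against control), 2 and 9 (low line against control) and 7 and 5 (high against low line), fitting with no intensity trend gave 1 and 6, 2 and 8, and 3 and 1 in the same order; in the last comparison the calls on Ppara 1449051_at, Rxra 1454773_at, Esrra 1460652_at and Ppargc1a 1437751_at were kept and the other 8 had adjusted p of 0.062 to 0.169. With 1 probe set per gene there were 3 lower in the high line, 1 higher and 5 lower in the low line and 1 lower between the lines, since fewer probe sets were counted. The filter at the 75th percentile gave 1 higher in the low line, and no filter gave 3 lower between the lines. Between the lines, no filter also ended the calls on Ppara 1439675_at (adjusted p = 0.0511) and Esrra 1442864_at (0.0762), and fitting only the 4 arrays compared ended those on Esrra 1442864_at (0.0507) and Ppargc1a 1456395_at (0.056). Leaving out each array in turn gave 1 to 3 higher and 8 to 9 lower in the high line, 1 to 2 and 7 to 12 in the low line, and 4 to 7 and 1 to 5 between the lines. The causes of the other shifts were not tested. Same-numbered arrays did not deviate together (correlations 0.0396, 0.0273 and 0.000398). With 2 arrays per group this cannot settle whether the numbers pair the arrays, which the labels do not say. With a replicate block the counts were 3 and 8, 2 and 10, and 7 and 5, the added call being Pdk4 in the low line (adjusted p = 0.04996), and over all probe sets 3392, 5647 and 4325 were called, beside 3234, 5475 and 4179. Median centring moved the share of higher calls in the high line from 57.0% to 47.8%. Dim probe sets of Ppard, Rxra, Esrra and Esrrg carry wide intervals.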
